A study of Mus musculus with 9 samples.

Results

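The transcriptomes of murine Tc17 cells that received glutathione (GSH) together with dimethyl fumarate (DMF) were compared with those of Tc17 cells that received DMF alone. Tc17 cells are IL-17-producing CD8+ T cells. The members of the comparison were the 3 DMF and the 3 DMF + GSH libraries, 6 of the 9 libraries of the series, taken by their labels. Naive CD8+ T cells were sorted from lymph node and spleen of C57BL/6 mice, which the methods call sex- and age-matched, and were primed for 2 days. All cultures, controls included, held plate-bound anti-CD3 (5 µg/ml), anti-CD28 (0.5 µg/ml), IL-2 (50 U/ml), TGF-β (0.5 ng/ml), IL-6 (30 ng/ml) and an antibody against IFN-γ (5 µg/ml). As the treatment label reads, all cultures also held 0.2% DMSO, alone in Ctrl, with 20 µM DMF in the DMF group, and with 20 µM DMF and 50 µM GSH in DMF + GSH. No culture with GSH alone was analysed here. Each group had replicates 1, 2 and 3. Replicate 1 was batch 1, and replicates 2 and 3 were batch 2.

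GSH is a tripeptide with a free thiol that cells use to neutralize oxidants and electrophiles. DMF is an electrophile used as a drug in multiple sclerosis and psoriasis, and it reacts with thiols, GSH among them. In CD8+ T cells, the type 17 program (IL-17 cytokines) and the cytotoxic program (IFN-γ, granzymes and perforin) are alternative fates. The question was which genes and programs differed once GSH had been added to DMF.

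The values are normalized counts, which are reads per gene divided by a size factor of the library. The 6 libraries held 9753478 to 14511926 reads. Of 41388 genes in the table, 11599 had a mean of at least 10 over the 9 libraries and were tested with limma on log2(normalized count + 1), with the replicate number as a block. The log2FC is DMF + GSH minus DMF on that scale throughout, so that it understates the change of low genes. A gene was called, and is said to have risen or fallen, at an adjusted p under 0.01 and an absolute log2FC of at least 0.75. Nothing in the labels says that the replicates came from separate animals, and p-values then measure only the spread between these samples, which may be technical. The summed level of 4 Y-linked genes was 3124 to 3650.5 in the replicate 1 libraries of all groups and at most 1.42 in those of replicates 2 and 3. Libraries of replicate 1 also differed in the number of genes above 0, which was 17423 with DMF and 20147 with DMF + GSH, whereas it was 17679 and 17369 in replicate 2 and 16871 and 16890 in replicate 3.

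The 6 CD8 T cell markers (Cd8a, Cd8b1, Cd3d, Cd3e, Cd3g and Cd2) were all measured, with a summed normalized count of 24537.5 to 28759.9 with DMF and 23855 to 30102 with DMF + GSH. Singly they moved in both directions below the fold. Cd3g, Cd3d and Cd3e were higher (log2FC 0.62, 0.39 and 0.28) and Cd8a and Cd2 lower (−0.22 and −0.20), each at an adjusted p under 0.01. Cd8b1 had a log2FC of −0.05 (p adj 0.45). Cd4 did not exceed 4.40 in any library, whereas Foxp3, the other marker on the CD4 T cell list, fell (log2FC −1.52, p adj 2.9e-08). Of the B cell markers, Cd79b stood at 56.1 to 83.9 in the 6 libraries, whereas Cd79a was at most 8.80, Ms4a1 at most 4.40 and Pax5 at most 0.856. Among the myeloid markers, S100a8 and S100a9 were at 0 in all libraries, and Lyz2 reached 119 and Csf1r 58.3 in Ctrl replicate 3 alone. In the 6 libraries compared, Lyz2 was at most 10.7 and Csf1r at most 5.83, whereas Cd68 was present, at 51.8, 64.2 and 44.5 with DMF against 69.3, 72.0 and 69.0 with DMF + GSH, with no overlap (log2FC 0.40, p adj 0.081). The NK markers Ncr1 and Klrb1c did not exceed 2.20 there. Further markers of other cell types that moved with the comparison were Xcr1, with 13.8, 14.6 and 16.5 with DMF against 67.1, 52.7 and 33.1 with DMF + GSH, and Pecam1, with 195, 236 and 146 against 560.0, 592 and 259. On the same dendritic and the stroma and endothelium lists, Siglech, Flt3 and Col3a1 stood at 0 to 6.60. Col1a1 was higher as well, with 10.6, 9.42 and 2.90 with DMF against 14.3, 14.1 and 21.4 with DMF + GSH. Its groups did not overlap (log2FC 1.15, p adj 0.029). The part of such cells in the results was not tested. In bulk RNA, fewer cells of a type and less RNA per cell cannot be told apart.

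The addition of GSH to DMF moved 660 genes, of which 380 were higher (3.28% of the genes tested) and 280 lower (2.41%). All 660 moved in the same direction in the 3 replicate pairs, and in 557 the values of the DMF and the DMF + GSH libraries did not overlap. Both counts follow in part from the selection, since the calls were made on these same libraries. The share over all genes tested was not counted for either. The median absolute log2FC was 1.05 among the genes that rose and 0.96 among those that fell. A log2FC of at least 2 in size was found for 20 rises and 15 falls. The median log2FC of all genes tested was close to 0 (−0.0017). At an adjusted p under 0.05 with no minimum of the fold, 2308 genes were higher (19.9%) and 2506 lower (21.6%). These shares and those of the called genes are the base for the counts of each list below. Of the called genes, 215 had a mean normalized count under 50. Without replicate 1, and thus within batch 2, 239 genes were called higher and 153 lower. Without DMF replicate 1 alone, the counts were 252 and 152. When the preparation batch took the place of the replicate block, 31 genes were called higher and 32 lower, and 21 of the 62 named genes that were called remained so. Among the lists described here, this setting left 0 calls among the nucleolar, ATF4, integrin and TNF ligand genes.

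**Figure D1:**
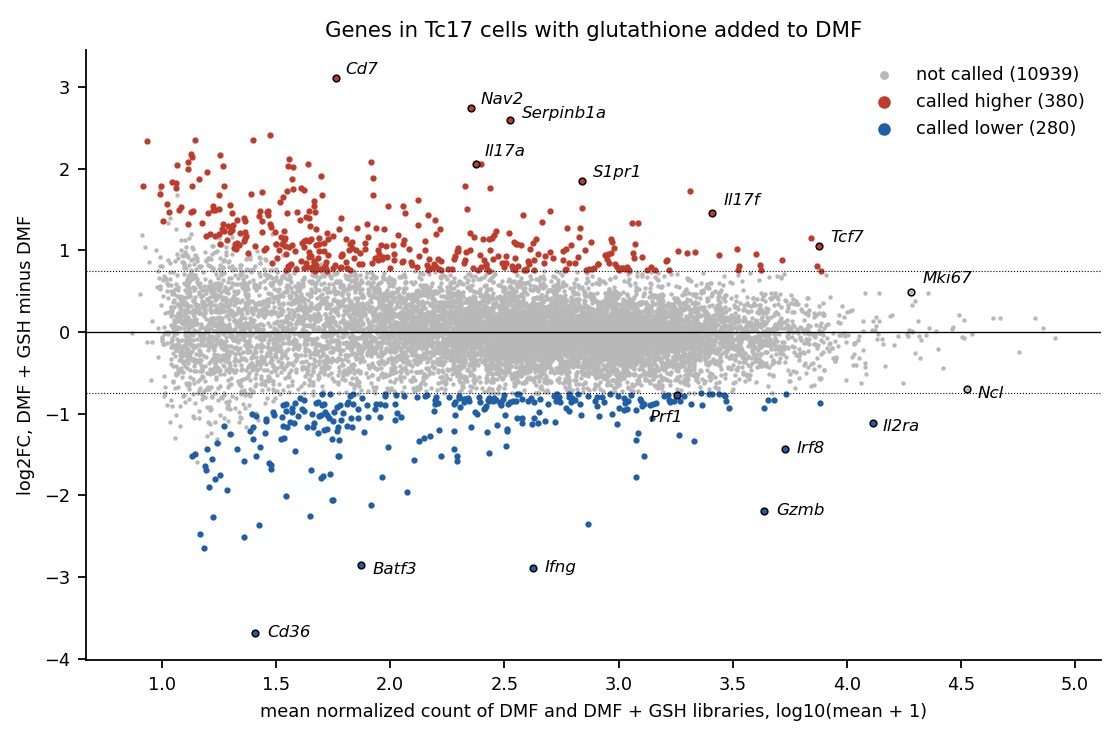
Each point is one of 11599 genes, with the mean normalized count of the 6 DMF and DMF + GSH libraries on a log10 scale on the x axis and the log2FC of DMF + GSH against DMF on the y axis. Red points rose (380) and blue points fell (280), dotted lines mark a log2FC of 0.75 in either direction, and abundant genes such as Gzmb (−2.19) and Tcf7 (1.06) stand well outside the lines.

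Il17a, Il17f and Il21 rose with GSH, as did the receptor genes Il1r1, Il23r and Ccr6. Of 21 listed type 17 genes, 18 were measured, all but Il22, Il9 and Csf2. Of these, 8 rose and 0 fell, against 3.28% and 2.41% of all genes tested, and the median log2FC was 0.61 against −0.0017 over all genes tested. Il17a and Il17f encode the cytokines that give Tc17 cells their name. Il17a (GRCm38, chromosome 1, 20730905 to 20734496, forward strand, GENCODE vM21) had 31.7, 146 and 136 with DMF against 276, 398 and 429 with DMF + GSH, beside 269, 504 and 418 in Ctrl. The DMF libraries lay below every other library, and the DMF + GSH libraries lay within the range of Ctrl (log2FC 2.06 ± 0.21 (SE), p adj 4.5e-07). The call was lost with robust variance moderation (p adj 0.013) and with neither block nor batch in the fit (p adj 0.019), at the same log2FC. DMF replicate 1 was the lowest of the 9 libraries. Il17f, its neighbour (chromosome 1, 20777146 to 20790617, reverse strand), had 722, 1791 and 1763 with DMF against 2694, 3832 and 4549.5 with DMF + GSH, with no overlap (log2FC 1.45 ± 0.10 (SE), p adj 1.0e-08). Il21, a cytokine that sustains type 17 cells, had 104, 211 and 219 with DMF against 325, 377 and 475 with DMF + GSH (log2FC 1.20 ± 0.13 (SE), p adj 9.6e-07). The receptor gene Il1r1, through which IL-1 acts on type 17 cells, rose as much as Il17a and had 49.7, 129 and 119 with DMF against 262, 524 and 415 with DMF + GSH (log2FC 2.06 ± 0.13 (SE), p adj 3.7e-09). Its DMF + GSH libraries remained below those of Ctrl in each replicate, which had 531, 792 and 623.

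The other members that rose did not exceed a normalized count of 59.4 in the DMF + GSH libraries. Ccr6, the chemokine receptor of type 17 cells, had 5.29, 9.42 and 16.5 with DMF against 24.2, 26.0 and 22.4 with DMF + GSH (log2FC 1.27, p adj 0.0027). Il23r, which encodes the IL-23 receptor chain, showed a log2FC of 1.12, and the membrane protein genes Tmem176a and Tmem176b showed 1.51 and 1.27. For Ccr6 the call was lost without replicate 1 or 2 of either group, and for Tmem176a it was lost without DMF + GSH replicate 3. Maf (0.61) and Rora (0.61), regulators of type 17 genes, were higher at an adjusted p under 0.05 but below the fold. Irf4 and Il12rb1 were lower at that threshold (log2FC −0.25 and −0.72). Batf, Ahr, Ccl20 and Il10 did not pass it. Without DMF replicate 1, 5 members rose.

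Most measured genes of the effector cytotoxic T lymphocyte (CTL) program fell. Of 19 measured of 26 listed genes, 12 fell and 1 rose, against 2.41% and 3.28% of all genes tested. The median log2FC was −0.78. Ifng, the gene of IFN-γ (GRCm38, chromosome 10, 118441046 to 118445892, forward strand), had 706, 597 and 921 with DMF against 94.6, 118 and 82.6 with DMF + GSH, beside 59.2, 139 and 118 in Ctrl. It was thus 7.53 times lower with GSH by the ratio of the group means, and the groups were far apart (log2FC −2.89 ± 0.20 (SE), p adj 7.9e-09). Gzmb, which encodes the death-inducing protease granzyme B, was the most abundant gene of the list (chromosome 14, 56258838 to 56262260, reverse strand). It had 6865, 7309 and 7205 with DMF against 1592, 1258 and 1894 with DMF + GSH, so that the 3 DMF libraries were nearly equal and each exceeded the highest DMF + GSH library by far (log2FC −2.19 ± 0.13 (SE), p adj 1.4e-09). Prf1, the pore-forming perforin, fell less, from 2223, 2432 and 2184 with DMF to 1376, 1422 and 1204 with DMF + GSH (log2FC −0.77 ± 0.06 (SE), p adj 3.8e-08). Without DMF + GSH replicate 3 the call of Prf1 was lost.

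Further granule and chemokine genes fell as well. Gzmc had 56.1, 24.0 and 32.9 with DMF against 9.90, 5.20 and 2.92 with DMF + GSH (log2FC −2.50 ± 0.37 (SE), p adj 2.8e-05), and Gzma showed a log2FC of −1.90. Gzmc belongs to a cluster of granzyme genes of similar sequence, and how the counting treated reads that fit several genes was not stated. Ccl3 and Ccl4, chemokines secreted by CTLs, showed log2FC values of −1.77 and −1.23. Ccl3 had 1229, 2096 and 2194 with DMF against 337, 771 and 546 with DMF + GSH, with no overlap. Of the T-box factors that drive the cytotoxic program, Eomes fell from 139, 129 and 123 with DMF to 55.0, 20.0 and 22.4 with DMF + GSH (log2FC −2.12 ± 0.25 (SE), p adj 2.6e-06), and Tbx21, which encodes T-BET, from 363, 578 and 602 with DMF to 238, 324 and 286 with DMF + GSH (log2FC −0.84 ± 0.13 (SE), p adj 3.7e-05). Without DMF + GSH replicate 3 the call of Tbx21 was lost. Prdm1 (BLIMP-1), Tnf and Klrk1 (NKG2D) fell by 1.93, 0.78 and 0.76 on the log2 scale, and without DMF replicate 3 the calls of all 3 were lost. The exception was Id2, a regulator of effector CD8+ T cells, which rose from 614, 687 and 568 with DMF to 1255, 1195 and 1026 with DMF + GSH (log2FC 0.89, p adj 1.4e-08). Cxcr3, Cx3cr1 and Il12rb2 did not pass an adjusted p of 0.05. Without DMF + GSH replicate 3, 7 members of the list fell.

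**Figure D2:**
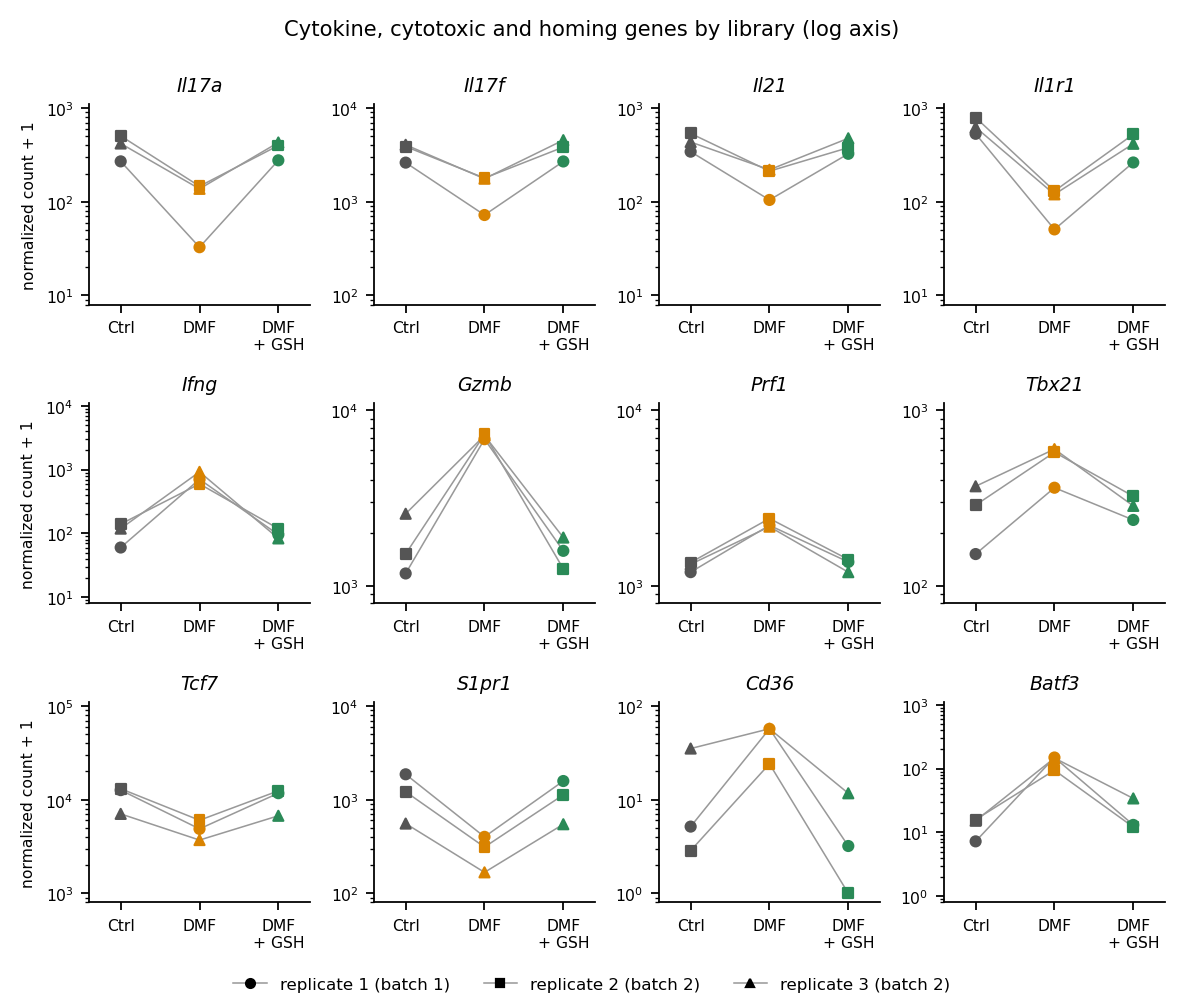
Normalized count + 1 (log axis) of 12 genes in the 9 libraries, with Ctrl, DMF and DMF + GSH on the x axis, a symbol for each replicate number and grey lines that join libraries of the same number. Il17a, Il17f, Il21, Il1r1, Tcf7 and S1pr1 are lowest with DMF, whereas Ifng, Gzmb, Prf1, Tbx21, Cd36 and Batf3 are highest with DMF and lower again with DMF + GSH in each replicate.

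Genes of naive and memory T cells that are linked to FOXO1 were mostly higher with GSH. FOXO1 is a transcription factor that AKT keeps out of the nucleus, and it maintains genes of lymph node homing and quiescence. Of 20 measured members, 11 rose and 0 fell, against 3.28% and 2.41% of all genes tested. At an adjusted p under 0.05, 17 were higher, against 19.9%, and the median log2FC was 0.84. S1pr1 encodes the receptor that guides T cells out of lymph nodes (chromosome 3, 115710433 to 115715072, reverse strand) and had 399.9, 311 and 166 with DMF against 1579.9, 1124 and 545 with DMF + GSH (log2FC 1.85 ± 0.08 (SE), p adj 2.7e-11). It was lowest in replicate 3 of each group, and the difference within a pair was 1.71 to 1.98 on the log2 scale. Tcf7, which encodes the memory factor TCF-1, had 4875, 6027 and 3702 with DMF against 11726, 12416 and 6726 with DMF + GSH (log2FC 1.06, p adj 2.9e-09). Satb1, a chromatin organizer, Pik3ip1, an inhibitor of PI3K, and Tnfrsf25 showed log2FC values of 1.15, 1.43 and 1.44. Il7r, Klf2, Klf3, Txnip and Sesn3 rose by 0.79 to 0.99. Foxo1 itself differed little (log2FC 0.18, p adj 0.0086), and Bcl2, Foxp1 and Id3 did not pass an adjusted p of 0.05. The number of members that rose was 10 to 12 when any single library was left out, 1 with the preparation batch in place of the replicate block, and 0 with neither.

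The largest changes included genes of other functions. Cd7, a T and NK cell surface protein, had the largest rise (log2FC 3.11 ± 0.45 (SE), p adj 2.0e-05), with 18.0, 41.9 and 0 with DMF against 116, 132 and 33.1 with DMF + GSH. The groups overlapped, DMF replicate 3 was at 0, and the differences within the pairs were 2.62, 1.63 and 5.09. Nav2, a cytoskeletal gene (chromosome 7, 48908716 to 49610090, forward strand), had 42.3, 92.5 and 43.6 with DMF against 386, 513 and 273 with DMF + GSH (log2FC 2.75 ± 0.13 (SE), p adj 1.2e-10). Serpinb1a, an inhibitor of neutrophil-type serine proteases (chromosome 13, 32842092 to 32851185, reverse strand), had 79.3, 128 and 71.6 with DMF against 556, 800.3 and 377 with DMF + GSH (log2FC 2.60 ± 0.10 (SE), p adj 4.4e-12), the smallest adjusted p of all genes. It did not reach the level of Ctrl, which had 1024, 1229 and 653. The further rises in order of size were Lrrc75b (2.41), Daw1 (2.35), Klrb1f (2.35), the calcium channel gene Cacna1i (2.35), Zan (2.18), the integrin genes Itgam (2.16) and Itga7 (2.14), the antisense gene Gm26740 (2.12) and Apol7e (2.09). Except for Apol7e, their DMF libraries had normalized counts of at most 18.8. The call of Itga7 was lost without replicate 1 of either group, and its log2FC without DMF replicate 1 was 1.38. Klrb1f and Apol7e belong to families of similar genes, and the library kit does not mark strand, so that reads of Gm26740 and of a gene on the other strand cannot be told apart.

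Cd36, a fatty acid and lipoprotein receptor, had the largest fall of all genes tested (chromosome 5, 17781690 to 17888801, reverse strand). It had 56.1, 23.1 and 56.1 with DMF against 2.20, 0 and 10.7 with DMF + GSH, beside 4.16, 1.86 and 34.1 in Ctrl (log2FC −3.68 ± 0.48 (SE), p adj 7.3e-06). Batf3, an AP-1 family factor, fell from 148, 93.3 and 145 with DMF to 12.1, 11.1 and 33.1 with DMF + GSH (log2FC −2.86 ± 0.32 (SE), p adj 1.2e-06), with no overlap. Lta, which encodes lymphotoxin-α, was the most abundant of the large falls after Gzmb and had 1307, 569 and 1842 with DMF against 193, 159.6 and 335 with DMF + GSH (log2FC −2.35 ± 0.17 (SE), p adj 1.7e-08). Havcr2, which encodes the inhibitory receptor TIM-3, had 69.8, 23.1 and 39.7 with DMF against 6.60, 10.4 and 4.86 with DMF + GSH (log2FC −2.37, p adj 0.0017). Its call was lost without replicate 1 of either group and without DMF + GSH replicate 3. The receptor gene Tnfrsf11a (RANK), the chemokine gene Ccl1, the non-coding RNA H19 and the glycosyltransferase gene Gcnt4 showed log2FC values of −2.48, −2.25, −2.65 and −2.27. H19 and Gcnt4 had overlapping groups and lost the call without DMF replicate 1, when the log2FC of Gcnt4 was −1.27, and Gcnt4 lost it also without DMF + GSH replicate 1 or 3. The DMF + GSH libraries of Tnfrsf11a, 2.20, 2.97 and 4.86, lay below the Ctrl library of the same replicate number, which had 8.31, 3.72 and 15.6.

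**Figure D3:**
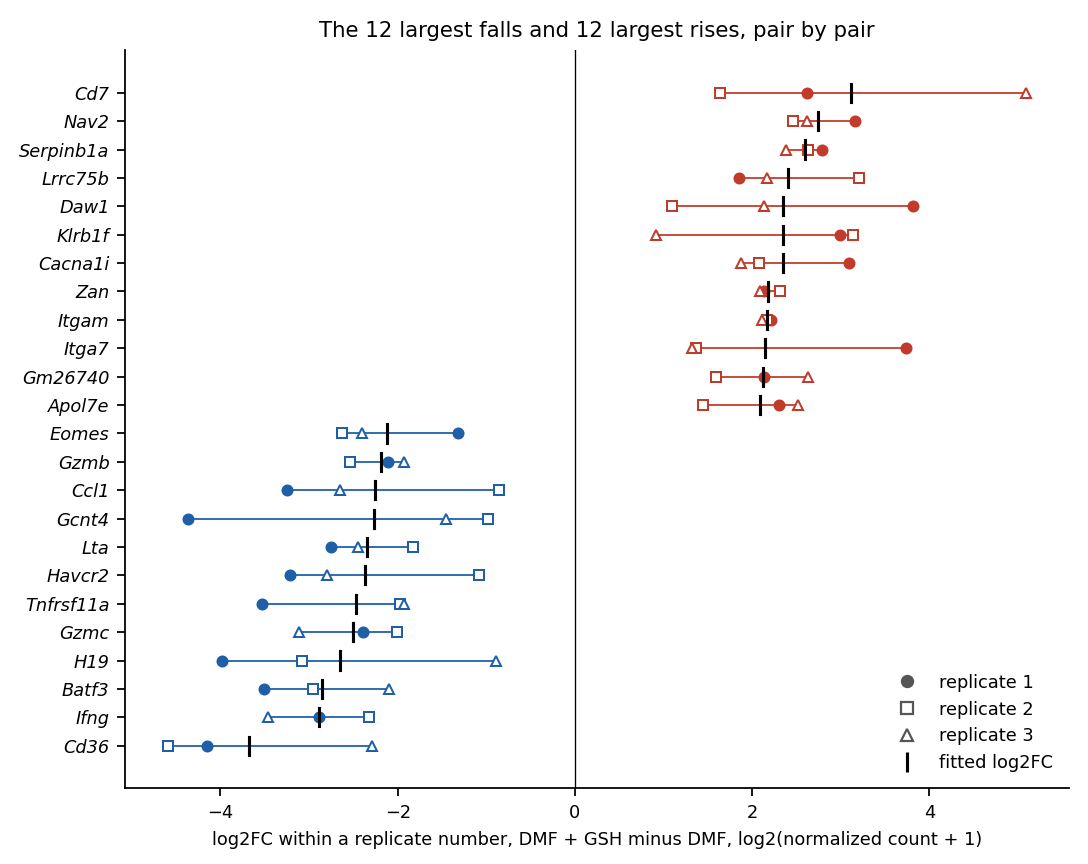
The log2FC of DMF + GSH against DMF within each replicate number, on log2(normalized count + 1), for the 12 genes with the largest rises (red) and the 12 with the largest falls (blue). Circles, squares and triangles stand for replicates 1, 2 and 3 and black ticks for the fitted log2FC, and the pairs lie close together for Serpinb1a, Zan, Itgam and Gzmb but far apart for Cd7, Gcnt4 and H19.

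Among chemokines and their receptors, 4 of 18 measured genes rose and 5 fell, against 3.28% and 2.41% of all genes tested. The receptor genes Cxcr4, Ccr2, Ccr6 and Cxcr6 rose (log2FC 1.68, 1.50, 1.27 and 0.92). Cxcr4, the receptor of CXCL12, had 95.2, 22.3 and 15.5 with DMF against 215, 83.2 and 66.1 with DMF + GSH, so that the groups overlapped although each pair rose. Ccr8 and Ccr4, receptors of type 2 and regulatory T cells, fell (log2FC −1.51 and −1.09), and the 3 ligand genes that fell were Ccl1, Ccl3 and Ccl4. Without DMF + GSH replicate 1, 2 genes of the list were called higher. Among the integrin and adhesion genes, 5 of 15 measured rose and 0 fell, against the same shares. Among those that rose were Itgam, Itgb3 (1.27) and both chains of the gut-homing integrin, Itga4 (0.85) and Itgb7 (0.82). Itgb7 had 2899.9, 3476 and 2644 with DMF against 5547, 6278 and 4234 with DMF + GSH, with no overlap. The integrin genes Itgb2 and Itgal differed by less than 0.1 on the log2 scale, and Itgae, which encodes CD103, had a log2FC of −0.07 (p adj 0.43).

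Inhibitory and costimulatory receptors moved in both directions, with 2 of 19 measured genes higher and 4 lower, against 3.28% and 2.41% of all genes tested. Besides Havcr2, Cd200 (−1.40), Tigit (−0.93) and the costimulatory receptor gene Tnfrsf4 (OX40, −0.79) fell. Tigit had 818, 758 and 748 with DMF against 369.7, 470.0 and 381 with DMF + GSH, and its DMF libraries were close together and far above the others. The 2 genes that rose were Slamf6 (0.76) and Nt5e (CD73, 0.75). Nt5e had 5709.8, 5950.4 and 5435 with DMF against 9512, 10791 and 8631 with DMF + GSH. Ctla4 and Lag3 were higher below the fold (0.69 and 0.53, adjusted p under 0.05), whereas Pdcd1, the gene of PD-1, had 1136, 1848 and 1523 with DMF against 1236, 1809 and 1594 with DMF + GSH (log2FC 0.05, p adj 0.55). Without DMF replicate 1, 2 genes of the list were called lower, and without DMF + GSH replicate 1, 1 was called higher. Of the killer lectin-like receptor genes, 8 of 24 in the table were measured. Klrb1f rose, and Klrk1 and Klre1 (log2FC −1.24) fell. Both falls were lost without replicate 2 or 3 of either group, and that of Klre1 also without replicate 1 of either.

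Response genes of IL-2 and STAT5 were mostly lower with GSH. IL-2 was present in all cultures, and its receptor activates STAT5. Of 24 measured genes, 7 fell and 1 rose, against 2.41% and 3.28% of all genes tested. At an adjusted p under 0.05, 17 were lower, against 21.6%, and the median log2FC was −0.53. Il2ra, the gene of the high-affinity receptor chain CD25, had 19821, 13025 and 20545 with DMF against 7017, 6537 and 11456 with DMF + GSH (log2FC −1.11 ± 0.09 (SE), p adj 6.0e-08). Every DMF library exceeded every DMF + GSH library. Myc, the growth regulator, had 4514, 3297 and 4147 with DMF against 2051, 1812 and 2408 with DMF + GSH (log2FC −0.93, p adj 6.8e-08). Lta, Gzmb, Prdm1, Bcl2l1 (−0.80) and Tnfrsf4 were the other falls, and Socs3, an inhibitor of cytokine signalling induced by IL-6 and STAT3, rose (log2FC 0.78, p adj 2.8e-07). Without replicate 2 of either group the call of Socs3 was lost. Il2rb, which encodes the shared β chain, did not pass an adjusted p of 0.05 (−0.03). Foxp3, the regulatory T cell factor, was taken from the marker list after its values had been seen. It had 2456, 1035 and 2325 with DMF against 578, 463 and 935 with DMF + GSH (log2FC −1.52 ± 0.12 (SE), p adj 2.9e-08). Ctrl had 796, 559 and 913.

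Of the TNF superfamily ligands, 3 of 9 measured genes fell and 0 rose, namely Lta, Tnfsf11 (RANKL, −0.88) and Tnf. The groups of Tnf overlapped, with 102, 186 and 142 with DMF against 62.7, 118 and 70.0 with DMF + GSH, and without DMF + GSH replicate 3 only Lta was called. Among 20 AP-1, NR4A and EGR factors, Batf3, the stress-induced factor Atf3 and the antigen receptor response gene Nr4a3 fell (log2FC −2.86, −1.76 and −0.89), and Fos rose. Fos had 139.7, 133 and 133 with DMF against 501, 265 and 214 with DMF + GSH, beside 254, 135 and 156 in Ctrl. The DMF libraries of Fos were nearly equal and the DMF + GSH libraries were the highest of their replicate number (log2FC 1.17 ± 0.16 (SE), p adj 1.2e-05). Jun, Junb, Nr4a1, Nr4a2 and Egr1 did not pass an adjusted p of 0.05. Among 24 interferon-stimulated and antigen presentation genes, Gbp2 rose (log2FC 1.02, p adj 4.4e-07) and Irf8 fell, whereas the class I genes H2-K1 and H2-D1 did not pass an adjusted p of 0.05. Irf8, a regulator of CTL and myeloid genes, had 7848, 6054 and 9518 with DMF against 2371, 2555 and 3818 with DMF + GSH (log2FC −1.43 ± 0.08 (SE), p adj 6.2e-10), and 8 genes of the list were higher and 4 lower at an adjusted p under 0.05. Except for the 8 higher genes, these counts were near the shares among all genes tested (3.28% and 2.41% called, 21.6% lower at an adjusted p under 0.05).

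NRF2 is a transcription factor that electrophiles release from KEAP1, and it induces genes of GSH and thioredoxin metabolism through antioxidant response elements. Of 26 measured target and GSH genes, 4 fell and 0 rose, against 2.41% and 3.28% of all genes tested. At an adjusted p under 0.05, 14 were lower, against 21.6%, and the median log2FC was −0.23. Srxn1, which encodes sulfiredoxin, a repair enzyme of oxidized peroxiredoxins, had 179.9, 117 and 126 with DMF against 60.5, 50.5 and 44.7 with DMF + GSH, beside 44.7, 39.9 and 48.3 in Ctrl (log2FC −1.41 ± 0.17 (SE), p adj 4.0e-06). Each DMF library exceeded each of the others. Txnrd1 (thioredoxin reductase) had 3823, 3049 and 4132 with DMF against 1999, 1888 and 2562 with DMF + GSH (log2FC −0.77, p adj 9.0e-08), and Gsto1, a glutathione transferase, 347, 281 and 321 with DMF against 155, 150.0 and 223 with DMF + GSH (log2FC −0.86, p adj 1.6e-05). Chac1, which encodes an enzyme that degrades GSH, was the other called member. Of the genes of GSH synthesis, Gclc had a log2FC of −0.27 (p adj 0.0058), Gclm −0.09 (p adj 0.38) and Gss −0.07 (p adj 0.65). Hmox1 showed −0.60 (p adj 0.013), and Nqo1 −0.77 at normalized counts of 5.20 to 16.9 (p adj 0.13). Without DMF replicate 1, 1 member of the list fell.

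ATF4 is the transcription factor of the amino acid and integrated stress response. Of 27 measured genes of this response, 9 fell and 1 rose, against 2.41% and 3.28% of all genes tested. At an adjusted p under 0.05, 20 were lower, against 21.6%, and the median log2FC was −0.60. Asns, asparagine synthetase, had 548, 782 and 579 with DMF against 306, 303 and 423 with DMF + GSH (log2FC −0.89 ± 0.15 (SE), p adj 1.1e-04). Slc7a5, the transporter of large neutral amino acids, was the most abundant member that fell and had 5694, 4911 and 6342 with DMF against 2604, 2459.7 and 4055 with DMF + GSH (log2FC −0.92 ± 0.08 (SE), p adj 4.9e-08). Sesn2, an inhibitor of mTORC1, had 414, 250.0 and 381 with DMF against 175, 173 and 227 with DMF + GSH (log2FC −0.84, p adj 3.7e-05). In these 3 genes the groups did not overlap, and Sesn2 lost its call without replicate 1 of either group. Chac1 had 43.4, 70.2 and 27.1 with DMF against 11.0, 21.5 and 20.4 with DMF + GSH (log2FC −1.31, p adj 0.0027), and Cth, the enzyme that makes cysteine from cystathionine, showed −1.11. Aldh1l2, Slc6a9, Trib3 and Eif4ebp1 also fell (log2FC −1.49 to −0.78). Atf4 itself was lower below the fold (log2FC −0.49, p adj 1.5e-06), Ddit3, the gene of CHOP, was not called (log2FC 0.20, p adj 0.26), and Ddit4, an mTORC1 inhibitor, rose (log2FC 0.76, p adj 1.2e-06). The count of falls depended on single libraries: 4 members fell when DMF replicate 1 was left out, 2 without DMF replicate 2, 3 without replicate 1 of DMF + GSH and 4 without its replicate 2. The calls of Aldh1l2 and Chac1 were lost in each of these cases, and that of Cth without replicate 2 of either group or DMF + GSH replicate 3.

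The promoter windows of these lists were searched for the matching response elements. The windows are those of RefSeq on GRCm38.p6, 250 bases before to 50 after the start site, and 8506 of the 11599 genes tested had at least 1. The antioxidant response element was written TGACNNNGC and the amino acid response element, bound by ATF4, TGATGNAA, and both strands were read. Neither string of letters contains the other. The antioxidant response element was in at least 1 window of 8 of the 21 genes of the NRF2 list that had one (38.1%), against 17.3% of the genes tested that had one, and the amino acid response element in that of 5 of 23 genes of the ATF4 list (21.7%), against 2.66%. Neither element was particular to its list. The antioxidant letters ranged from 0% (killer lectin-like receptors) to 40% (TGF-β list, 4 of 10 genes) and were in 34.8% of the ATF4 list. The amino acid letters ranged from 0% (type 17 list) to 41.7% (aminoacyl-tRNA synthetases, 5 of 12 genes). Counted by window and not by gene, 12.4% of all 32851 windows held the antioxidant letters and 3.97% the amino acid letters. The T-box letters TCACACC were in a window of 2 of 18 genes of the effector CTL list (11.1%), against 4.07% of the genes tested, and the FOXO letters GTAAACA in that of 2 of 17 genes of the FOXO1-linked list (11.8%), against 2.95%. Other lists held more of them. Over the lists the T-box letters ranged from 0% (FOXO1-linked) to 14.3% (chemokines), and the FOXO letters from 0% (type 17) to 18.8% (p53 targets). Of the genes with a window that fell, 16.8% held the antioxidant and 3.37% the amino acid response element, and of those that rose, 19.6% and 2.91%. A match is a description of letters and not a binding site. Among called members with a match before the start site, the 250 bases are shown for Txnrd1 (chr10:82858956-82859205, forward strand), Asns (chr6:7693210-7693459, reverse strand) and Chac1 (chr2:119350992-119351241, forward strand), 5′ to 3′ along the gene's strand, with the matched letters in capitals. The match begins 92 bases before the start in Txnrd1, 23 in Asns and 193 in Chac1, and in Txnrd1 and Chac1 it reads on the opposite strand. Txnrd1 has 3 windows, of which 1 holds the match. Srxn1 and Trib3 have theirs after the start site.
Txnrd1: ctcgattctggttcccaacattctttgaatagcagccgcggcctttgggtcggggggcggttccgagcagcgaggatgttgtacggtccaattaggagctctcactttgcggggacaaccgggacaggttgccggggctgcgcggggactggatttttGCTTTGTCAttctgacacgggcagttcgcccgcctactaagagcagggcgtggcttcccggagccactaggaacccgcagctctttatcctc
Asns: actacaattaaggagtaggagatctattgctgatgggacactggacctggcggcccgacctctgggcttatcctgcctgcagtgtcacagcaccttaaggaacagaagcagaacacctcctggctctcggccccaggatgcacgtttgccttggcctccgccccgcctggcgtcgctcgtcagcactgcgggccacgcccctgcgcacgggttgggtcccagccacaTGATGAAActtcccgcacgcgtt
Chac1: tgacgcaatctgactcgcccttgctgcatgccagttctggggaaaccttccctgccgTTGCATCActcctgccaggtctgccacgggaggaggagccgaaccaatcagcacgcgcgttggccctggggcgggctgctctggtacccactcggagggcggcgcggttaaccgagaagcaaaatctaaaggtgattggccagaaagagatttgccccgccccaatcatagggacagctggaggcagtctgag

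Nucleolar genes of ribosome biogenesis were lower with GSH without exception. All 29 measured members were lower at an adjusted p under 0.05, against 21.6% of all genes tested. Past the fold, 12 of them fell, against 2.41%, and the median log2FC was −0.70. Rrp9, a factor of pre-rRNA processing, had 1358, 1248 and 1657 with DMF against 613, 685 and 952 with DMF + GSH (log2FC −0.94 ± 0.07 (SE), p adj 2.0e-08). Polr1b, a subunit of RNA polymerase I, had 1799.6, 1347 and 1821 with DMF against 837, 771 and 1039 with DMF + GSH (log2FC −0.91 ± 0.07 (SE), p adj 3.9e-08). Nop2, an rRNA methyltransferase, had 2724, 2304 and 3017 with DMF against 1307, 1336 and 1758 with DMF + GSH (log2FC −0.87 ± 0.07 (SE), p adj 2.7e-08). In each of these 3 genes the DMF libraries lay above all 6 others. The abundant nucleolin gene Ncl had 41079.6, 36250.3 and 46800.5 with DMF against 23407, 22758 and 30441 with DMF + GSH (log2FC −0.70, p adj 3.2e-08), and Npm1 showed −0.43. Past the fold, 7 members fell without DMF replicate 1, and 7 when replicate 1 of DMF + GSH was left out. The E-box CACGTG, which MYC and other factors bind, was in a window of 5 of 24 genes of the list (20.8%) and of 17.8% of the genes that fell, 8.36% of those that rose and 12.2% of the genes tested. It was not particular to this list, since its share ranged from 0% (effector CTL genes) to 33.3% (aminoacyl-tRNA synthetases). Of the called nucleolar members, Mybbp1a holds the E-box after its start and Nop2 60 bases before (chr6:125131633-125131882, forward strand), shown with the match in capitals.
Nop2: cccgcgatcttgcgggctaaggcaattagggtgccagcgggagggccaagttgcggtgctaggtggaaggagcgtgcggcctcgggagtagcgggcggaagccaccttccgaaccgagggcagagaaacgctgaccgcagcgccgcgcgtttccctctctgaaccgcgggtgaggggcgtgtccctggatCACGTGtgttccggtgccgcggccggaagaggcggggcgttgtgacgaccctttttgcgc

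**Figure D4:**
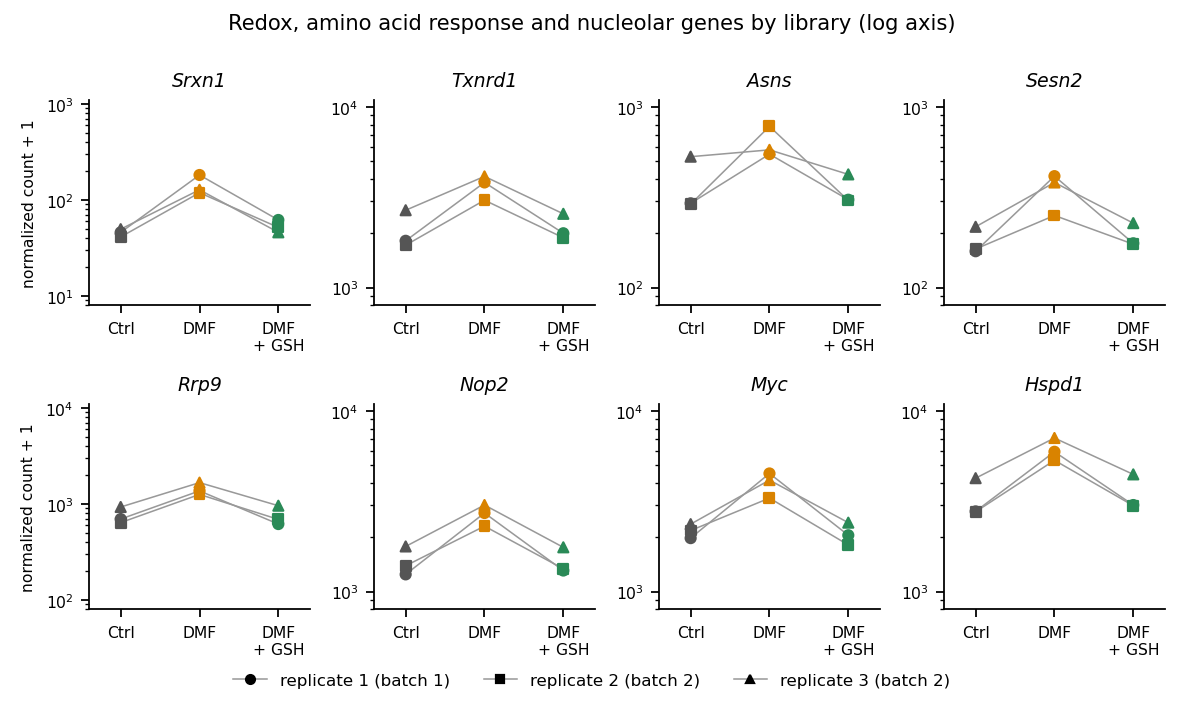
Normalized count + 1 (log axis) of 8 genes of the redox, amino acid response, nucleolar and chaperone lists in the 9 libraries, with symbols for the replicate numbers and grey lines between libraries of the same number. In every replicate DMF is the highest of the 3 groups and DMF + GSH is lower than DMF, with the closest values for Asns in replicate 3.

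Genes that support protein synthesis and folding shifted in the same direction by smaller amounts. Of 20 cytosolic aminoacyl-tRNA synthetase genes, 19 were lower at an adjusted p under 0.05, against 21.6% of all genes tested. In this list 0 were called, and the median log2FC was −0.42. Tars had the largest difference and had 2888, 2604 and 3096 with DMF against 1759, 1662 and 2275 with DMF + GSH (log2FC −0.60, p adj 3.3e-07), and Qars was the exception (log2FC 0.14, p adj 0.069). Of 31 proteasome subunit genes, 28 were lower at an adjusted p under 0.05 and 0 were called, with a median of −0.29. Psmd7 had 2319, 2365 and 2670.2 with DMF against 1570.0, 1601 and 1987 with DMF + GSH (log2FC −0.52, p adj 1.1e-06). Of 26 heat shock and endoplasmic reticulum chaperone genes, 21 were lower and 0 higher at that threshold, with a median of −0.38. The mitochondrial chaperone gene Hspd1 (HSP60) was the 1 member that fell past the fold and had 5955, 5341 and 7097 with DMF against 3017, 2993 and 4461 with DMF + GSH (log2FC −0.83, p adj 1.5e-08). Without DMF replicate 1 its call was lost.

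In the lists of mitosis and DNA replication genes, 0 members were called. Of 30 mitosis genes, 23 were higher and 0 lower at an adjusted p under 0.05, against 19.9% and 21.6% of all genes tested. The median log2FC was 0.24. Nusap1, a spindle protein, had 1744, 1946 and 1547 with DMF against 2813, 2763 and 2243 with DMF + GSH (log2FC 0.58, p adj 3.0e-07), and the proliferation marker Mki67 17586, 13617 and 16602 with DMF against 24666, 20998 and 21535 with DMF + GSH (log2FC 0.50, p adj 2.3e-06). Of 32 DNA replication genes, 8 were lower and 0 higher, with a median of −0.12, and the share of lower genes was near the 21.6% among all genes tested. Orc1 had the largest difference (log2FC −0.55, p adj 2.3e-05). Of 20 p53 targets and CDK inhibitors, 2 rose and 3 fell, against 3.28% and 2.41% of all genes tested. Cdkn1a, the gene of p21, had 642, 436 and 624 with DMF against 223, 212 and 410.3 with DMF + GSH (log2FC −1.05 ± 0.13 (SE), p adj 3.4e-06), whereas Cdkn1b (p27) and Cdkn2d (p19) rose (log2FC 0.76, p adj 1.0e-07, and log2FC 0.76, p adj 1.2e-06). The other falls were Sesn2 and Phlda3, and the groups of Phlda3 overlapped. Without DMF replicate 1, Cdkn1a alone of these 5 was called.

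Of 22 glycolysis and lactate genes, 5 were higher and 5 lower at an adjusted p under 0.05, near the 19.9% and 21.6% among all genes tested. Aldoc, an aldolase isoform, was the 1 called gene, with 40.2, 66.8 and 27.1 with DMF against 131, 139.6 and 65.1 with DMF + GSH (log2FC 1.32, p adj 1.9e-05). The abundant genes Pkm, Aldoa and Gapdh did not pass that threshold (log2FC 0.01, 0.07 and 0.12), and Hk2 was lower (−0.62). Of 24 genes of the TCA cycle, in which fumarate is an intermediate, 11 were lower and 1 higher, and 0 were called. Idh3a had the largest difference (log2FC −0.41, p adj 1.1e-05), and Fh1, fumarate hydratase, showed −0.25 (p adj 0.0056). Of 24 sterol synthesis genes, 11 were lower and 1, Tm7sf2, higher, with none called. Of 13 fatty acid synthesis genes, 6 were lower and 2 higher, with Scd1 (−0.69) and Fasn (−0.62) as the largest differences. Of the 7 measured mRNAs of the mitochondrial genome, 2 were higher at an adjusted p under 0.05, and the largest difference was that of mt-Cytb (log2FC 0.17, p adj 0.023).

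TGF-β, which directs type 17 differentiation together with IL-6, was part of all cultures. Of 19 measured TGF-β receptor, SMAD and target genes, 5 were higher and 4 lower at an adjusted p under 0.05, close to the shares among all genes tested, and 0 were called. The largest difference was that of Tgfb3, with 22.2, 27.4 and 14.5 with DMF against 35.2, 38.6 and 34.0 with DMF + GSH (log2FC 0.77, p adj 0.018). Of 28 genes of 2-oxoglutarate dioxygenases, a class of demethylases and hydroxylases that fumarate can inhibit, 11 were higher and 3 lower. The shares among all genes tested were 19.9% and 21.6%, and 0 members were called. Kdm6b, a histone H3K27 demethylase, had the largest difference, with 1064, 681 and 815 with DMF against 514, 559 and 544 with DMF + GSH (log2FC −0.64, p adj 1.6e-04). Kdm3a and Kdm4a were higher (0.38 and 0.37), and Tet2 did not pass an adjusted p of 0.05. In the 10 lists with 0 called members, 151 of 228 measured entries had an unadjusted p under 0.05, beside 5675 of the 11599 genes tested, and edgeR, DESeq2 and voom also called 0.

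**Figure D5:**
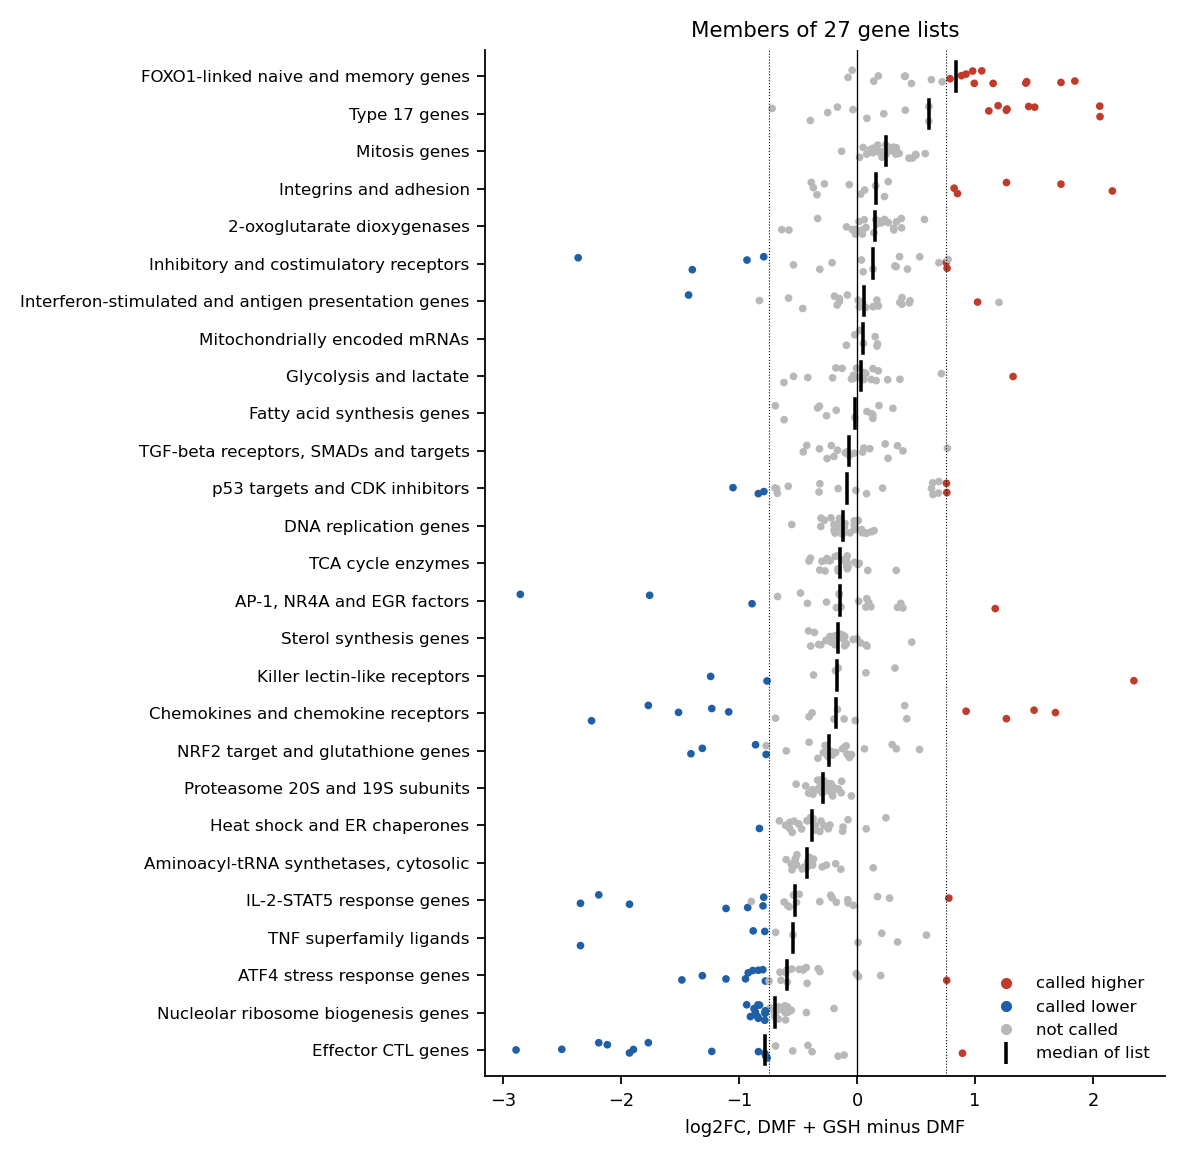
The log2FC of DMF + GSH against DMF for each measured member of 27 gene lists (points, red for called higher, blue for called lower, grey for not called), with a black tick for the list's median and the lists in order of it. The medians run from −0.78 for effector CTL genes to 0.84 for FOXO1-linked genes, and the nucleolar genes form a narrow cluster between −0.94 and −0.20.

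The same DMF libraries also enter the comparison of DMF with Ctrl, so that the values of both are not independent and are given side by side only. The median log2FC of DMF minus Ctrl was −0.81 for type 17 genes, −0.86 for FOXO1-linked genes, 0.94 for effector CTL genes, 0.62 for ATF4 response genes and 0.72 for nucleolar genes. The corresponding medians of DMF + GSH minus Ctrl, which share the Ctrl libraries with these, were −0.12, −0.085, −0.015, 0.015 and −0.0008. Serpinb1a had a log2FC of −0.76 in DMF + GSH against Ctrl (p adj 0.0036). The corresponding values of Il1r1 (−0.73, p adj 0.062), Fos (0.80, p adj 0.094) and Cd36 (−1.26, p adj 0.79) did not pass the test.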

How the data were processed

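Poly(A) RNA of 9 Tc17 cultures was sequenced as single 50 bp reads with a kit that does not mark strand. Per the labels and the study's methods, reads were aligned with STAR 2.4.0b to GRCm38 after FastQC, counted with featureCounts and analysed in DESeq2 with batch. The authors deposited 1 table of normalized counts (unit signal: reads divided by 1 size factor per library) for 41388 genes, with columns of their own comparison of DMF with Ctrl, namely a mean signal, a log2 fold change, a test statistic (a score) and p-values, which the authors deposited beside the counts and which were not used. Whole reads were recovered for 100% of values within 0.01 of a whole number, which gave 7671772 to 14511926 reads per library. The depth limits low genes, and the errors given cover these libraries only.

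Genes with a mean of at least 10 were tested in limma 3.58.1 (R 4.3.3) on log2(normalized count + 1), with the 9 libraries in 1 fit, group and replicate number as terms and Benjamini-Hochberg adjustment over 11599 genes. The prior degrees of freedom were 14.5 beside 4 residual ones. The replicate numbers were used as pairs because same-numbered libraries deviated together from their group means in all 9 pairs (correlations of 0.447 to 0.578), whereas differently numbered libraries had −0.471 to −0.0621. Deviations from a group mean sum to 0, so that the negative values follow in part from the positive ones. Alternatives were another pseudocount, minimum mean or scaling, no block, single libraries left out, and edgeR 4.0.16, DESeq2 1.42.0 and voom on the recovered reads. The fit was also run on simulated counts with known changes, and the outcome is not reported here.

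The comparison, its members and the 27 gene lists were chosen with earlier results of these data known. Named genes were the 12 largest rises and 12 largest falls among called genes with the same direction in the 3 pairs, the 3 called members of each list with the largest change (or the member with the largest change where none was called), and genes that the study's text names for this experiment, 72 in all. Other list members are given to describe their list. A gene was measured if it was tested, which held for 572 of the 642 entries of the lists, while the others had a mean under 10 or were not found. Gene positions and types are those of GENCODE vM21, in which 40254 of the 41388 identifiers were found. Figures were drawn with Matplotlib 3.10.9. The marker genes Adgre1 and Trdc were not analysed here, and not every named gene is reported here.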

Additional observations from a re-analysis of the deposited data

How the results depend on the processing

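All 660 called genes that were tested kept their direction under each of the 27 alternatives, and the number of calls depended most on the replicate block. In many of these settings the direction could not change. Those that altered only the block, the variance moderation, the Ctrl libraries, the minimum mean or the thresholds leave the log2FC of a gene as it was. Without the block, 63 genes were called with batch as covariate (31 higher, 32 lower) and 28 without batch (12 higher, 16 lower). The cause was not tested. Leaving out 1 library or replicate number gave 392 to 728 calls, 239 to 413 higher and 152 to 315 lower, with the lowest counts without DMF replicate 1 (404) and without replicate 1 in all groups (392). A minimum mean of 50, which leaves 9646 genes, gave 443 calls (244 higher, 199 lower). A log2FC of at least 1 gave 343 (214 higher, 129 lower), and an adjusted p under 0.05 with no fold gave 4814 (2308 higher, 2506 lower). The other alternatives gave 537 (DESeq2) to 662 (robust limma), and edgeR called 655, of which 634 were shared. DESeq2 gave no adjusted p for 11 of the 660 calls, Cacna1i and Gcnt4 among them. With a pseudocount of 4 the log2FC of H19 shrank to −1.64 and that of Cacna1i to 1.56. Of 1918 values of named genes under the alternatives, 203 lost the call, 17 gained it and 0 reversed, with the same limit on direction. Robust limma lost the calls of Cd7 and Il17a, quantile normalization those of Prf1 and Klrk1, DESeq2 those of Aldh1l2, Klrk1, Ccr6 and Klre1, edgeR that of Aldh1l2, voom those of Aldh1l2 and Phlda3, the fit without a minimum those of Aldh1l2 and Klre1, the fit of the 6 libraries those of Aldh1l2 and Ccr6, and a pseudocount of 0.5 that of Gcnt4. Under the batch covariate without the block, 4 of 8 type 17 rises, 1 of 11 FOXO1-linked rises, 6 of 12 effector CTL falls, 2 of 7 IL-2-STAT5 falls and 1 of 4 NRF2 falls were left by count. No call was left among the 12 nucleolar falls, the 9 falls and 1 rise of the ATF4 list, the 5 integrin rises, the 3 TNF ligand falls, and the killer lectin-like receptor, p53, glycolysis and heat shock lists. No batch 1 value could be given, since that batch held 1 library per group.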

Other observations

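Of the 660 called genes, 567 belonged to none of the 27 lists. A few of the abundant ones are given here, chosen after their values had been seen. Srm, spermidine synthase, had 2609, 2075 and 3046 with DMF against 833, 964 and 1499 with DMF + GSH (log2FC −1.26 ± 0.09 (SE), p adj 6.7e-09). The 1-carbon and amino acid genes Shmt1, a serine hydroxymethyltransferase, Slc19a1, the folate carrier, and Bcat1, a branched-chain aminotransferase, also fell (log2FC −0.85, −0.88 and −0.88). Their DMF libraries lay above all DMF + GSH libraries. Zbtb32, a zinc finger repressor, had 1644, 1483 and 1989.9 with DMF against 621, 618 and 812 with DMF + GSH (log2FC −1.32 ± 0.06 (SE), p adj 1.2e-10). The sialyltransferase gene St6galnac4 fell by 1.05 and the coronin gene Coro2a by 1.34 on the log2 scale.

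Among the rises, Cmah, which converts the sialic acid of surface glycans to its hydroxylated form, had 652, 901 and 499 with DMF against 2091, 2022 and 1129.8 with DMF + GSH (log2FC 1.34 ± 0.08 (SE), p adj 2.9e-09). Fam65b, an inhibitor of RhoA, showed 1.34, and the kinesin gene Kif21b 0.96. Dpp4, which encodes the surface peptidase CD26, showed 0.91. Igfbp4, a binding protein of insulin-like growth factors, had 4806, 3125 and 3103 with DMF against 7589, 6624 and 5869 with DMF + GSH (log2FC 0.89 ± 0.07 (SE), p adj 1.7e-08), with no overlap between the groups.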
